A study of Mus musculus with 6 samples.

Results

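The genes examined, 10 in all, mark the resting, adventitial-like state of fibro-adipogenic progenitors (FAPs), the Pdgfra-positive mesenchymal cells between muscle fibres. The genes are Pi16, Dpp4, Cd55, Entpd2, Sema3c, Clec3b, Gsn, Cd34, Cd248 and Ly6a. They were chosen by gene symbol, with earlier results of these data known. Each of the 10 symbols matched 1 of the 54100 genes in the count table. The libraries came from Pdgfra+ cells of the plantaris muscle of C57BL/6 mice, 3 from sham and 3 from overloaded muscle. Each library was made from 1000 sorted cells by a protocol that tags transcripts near their 3' end. No genetic change is labelled in either group. The sources used here do not state the age of the mice, the way and length of loading, or whether the 3 tubes of a group held cells of separate mice. The p-values therefore rest on differences among these tubes alone, and those may be technical.

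In many tissues fibroblasts that carry Pi16 and Dpp4 lie in the adventitia around vessels and in fascia, and they are regarded as a reserve from which more specialised fibroblasts arise. A second resting state, marked by Col15a1 and, in muscle, by Cxcl14 and Lum, lies within the tissue between fibres. Several of the markers act at the cell surface: Dpp4 trims peptides, Entpd2 breaks down extracellular ATP, and Cd55 limits complement. Ly6a, also called Sca-1, and Cd34 are antigens by which such cells are sorted from muscle. The comparison asks how these transcripts differ between FAPs of a muscle under added load and of a sham muscle.

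Sequence upstream of the start site is shown for the pair of markers with the largest falls that have a printable window, Dpp4 and Cd55, beside Cd34, whose fall was among the smallest. RefSeq start sites on GRCm38.p6 were found for 7 of the 10 genes, and Ly6a, Cd248 and Clec3b had none in the table used. The windows of Pi16 and Sema3c lie within exons of longer transcripts of these genes and are not printed. Each sequence runs 5' to 3' toward the start site, and capitals mark matches to the motifs searched.

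Dpp4 (chr2:62412232-62412481, minus strand): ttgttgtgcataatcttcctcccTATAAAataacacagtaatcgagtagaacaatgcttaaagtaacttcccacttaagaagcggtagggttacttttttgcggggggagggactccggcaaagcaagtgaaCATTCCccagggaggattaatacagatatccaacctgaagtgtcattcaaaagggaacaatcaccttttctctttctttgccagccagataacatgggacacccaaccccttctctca
Cd55 (chr1:130462745-130462994, minus strand): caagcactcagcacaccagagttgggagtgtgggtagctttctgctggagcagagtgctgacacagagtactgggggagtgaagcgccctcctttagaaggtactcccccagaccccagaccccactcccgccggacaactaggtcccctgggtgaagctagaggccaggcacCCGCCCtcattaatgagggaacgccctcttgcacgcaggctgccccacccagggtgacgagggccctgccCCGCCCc
Cd34 (chr1:194938571-194938818, plus strand): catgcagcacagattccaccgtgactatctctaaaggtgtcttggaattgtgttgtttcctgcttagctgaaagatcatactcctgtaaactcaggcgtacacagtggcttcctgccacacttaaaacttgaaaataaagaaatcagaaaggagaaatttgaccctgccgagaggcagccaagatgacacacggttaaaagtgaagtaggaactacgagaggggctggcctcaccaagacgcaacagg

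The motifs were TGANTCA (the AP-1 site), GGAATG (the TEAD site), GGGCGG (the GC box) and TATAAA (the TATA box), each searched on both strands of 250 bases before the start. Capitals in Dpp4 mark TATAAA, starting 227 bases before the start site, and GGAATG on the opposite strand, starting 118 bases before it. Both capitals in Cd55 are GGGCGG on the opposite strand. The Cd34 window held none of the motifs, and the Entpd2 window held the AP-1 and TEAD motifs and 2 GC boxes. Of 32851 such windows in the table, 6.75% held TGANTCA, 12.6% GGAATG, 32.7% GGGCGG and 12.4% TATAAA. The GC content was 43.6% before Dpp4, 64.0% before Cd55 and 46.4% before Cd34, against a median of 52.4% over all windows. The Dpp4 and Cd55 windows held no motif in common. The matches within each printed window do not overlap, and TGANTCA reads the same on both strands.

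Total counts were 500402 to 754456 per sham library and 850857 to 1124210 per overloaded library. Of all genes, 7207 had enough counts to test, and all 10 markers were among them. Levels are given as CPM, the counts of a gene per 1000000 counts in tested genes, scaled by the trimmed mean of M-values. A gene was called where the Benjamini-Hochberg adjusted p over all tested genes was under 0.05 in edgeR's quasi-likelihood test. Reads of olfactory and vomeronasal receptor genes, used as a measure of background, were 781 to 1819 CPM of all counts in sham and 232 to 1092 CPM in overloaded libraries. Their part in the results was tested only as a covariate, given with the alternatives.

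Of the 10 markers, 9 were called lower in FAPs of overloaded muscle and 1, Ly6a, was not called. Falls ranged from 5.07-fold for Clec3b to 1.44-fold for Cd34. Among all tested genes 14.3% were called lower and 15% higher. No marker was called higher by edgeR, DESeq2 or limma-voom, and none with a positive log2 fold change had an unadjusted p under 0.05. All 3 overloaded libraries lay below all 3 sham libraries for 9 of 10 markers, as they did for 20.3% of tested genes. The median log2 fold change was -1.24 over the markers and -0.025 over all tested genes. Because the markers were chosen with earlier results of these data known, these contrasts with all tested genes are a description only. A set of 7 markers was called lower under each of 14 alternative settings, while the calls of Cd34 and Cd248 lay close to the threshold. In RNA from sorted pools, fewer cells of a kind and less RNA per cell cannot be told apart.

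Pi16, a member of the CAP family of secreted and membrane-bound proteins (ENSMUSG00000024011, chromosome 17, 29317680 to 29330593, GRCm38, as for all gene positions here), stood at 175, 164 and 148 CPM in sham libraries 1 to 3 and at 59.6, 45.1 and 47.4 CPM in overloaded libraries 1 to 3. All sham libraries lay far above all overloaded ones. Its log2 fold change was -1.67 (standard error, SE, 0.24; edgeR adjusted p = 4.14e-06), or 3.17-fold lower. The counts behind it were 311 in sham and 139 in overloaded libraries. Within a group the libraries differed little, with a coefficient of variation (CV) of 8.27% in sham and 15.4% in overloaded muscle. On the opposite strand, exons of Pi16 overlap those of AC162182.1, which is not in the count table. Of the 50-base stretches of Pi16 transcripts, 3.88% also occur in other genes.

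Dpp4, a surface peptidase that removes dipeptides from the ends of chemokines and hormones (ENSMUSG00000035000, chromosome 2, 62330073 to 62412231), was at 87.3, 78.8 and 71.3 CPM in sham libraries. It was at 18.3, 15.05 and 20.8 CPM in overloaded libraries. The groups were well apart. Its log2 fold change was -2.12 (SE 0.32, edgeR adjusted p = 6.08e-06), a 4.34-fold fall. It had the fewest reads of the 10 markers, with 152 counts in sham and 49 in overloaded libraries. Only 1.51% of tested genes had a more negative log2 fold change. On the opposite strand, exons of Dpp4 overlap those of Gm13561, which had 1 count in all 6 libraries together. Of the 50-base stretches of Dpp4 transcripts, 2.92% also occur in Gm13561.

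Entpd2, an enzyme that turns extracellular ATP into ADP (ENSMUSG00000015085, chromosome 2, 25395874 to 25401321), stood at 258, 166 and 207 CPM in sham and at 109, 95.3 and 86.8 CPM in overloaded libraries. Sham libraries were more scattered, with a CV of 21.9% against 11.4%, but the groups did not overlap. The log2 fold change was -1.12 (SE 0.23, edgeR adjusted p = 4e-04). Exons of Entpd2 overlap those of Npdc1 on the same strand, and 25.9% of the 50-base stretches of its transcripts also occur in Npdc1. Npdc1, looked at because of this overlap, gave 89, 35 and 93 counts in the sham libraries. Its overloaded libraries gave 191, 190 and 184 counts, and it was called higher, the opposite direction (log2 fold change 0.94, edgeR adjusted p = 0.00282). The sources used here do not say how reads of the shared stretch were assigned.

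Cd55, which shields cells by speeding the decay of complement convertases (ENSMUSG00000026399, chromosome 1, 130439027 to 130462744), was at 156, 251 and 182 CPM in sham libraries. In overloaded libraries it was at 66.4, 35.1 and 27.8 CPM. The groups did not overlap, and overloaded library 1 was well above the other two. The log2 fold change was -2.15 (SE 0.29, edgeR adjusted p = 1.71e-06), and it ranged from -2.60 to -1.89 over the alternatives. Of the 50-base stretches of Cd55, 9.12% occur in other genes, among them its neighbour Cd55b. Cd55b gave 0, 2 and 3 counts in the sham libraries and none in the overloaded ones, and it was not tested.

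Sema3c, a secreted guidance cue of the class 3 semaphorins (ENSMUSG00000028780, chromosome 5, 17574281 to 17730268), stood at 312, 369 and 367 CPM in sham and at 164, 130 and 113 CPM in overloaded libraries. The groups lay well apart. Its log2 fold change was -1.36 (SE 0.22, edgeR adjusted p = 1.6e-05). No exon of another gene overlaps it and none of its 50-base stretches occurs elsewhere.

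Clec3b encodes tetranectin, a secreted lectin-like protein that binds plasminogen (ENSMUSG00000025784, chromosome 9, 123150946 to 123157432). It was at 367, 340 and 404 CPM in sham and at 108, 66.5 and 42.8 CPM in overloaded libraries. Sham libraries lay close together, while the overloaded ones were spread widely (CV 8.62% and 45.4%). The fall was the largest of the 10, at -2.34 on the log2 scale (SE 0.26, edgeR adjusted p = 5.59e-08). Of all tested genes, 0.874% had a more negative value.

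Gsn encodes gelsolin, which severs and caps actin filaments and is also secreted (ENSMUSG00000026879, chromosome 2, 35256380 to 35307892). It stood at 19735, 13813 and 24176 CPM in sham libraries and at 12297, 8570 and 6556 CPM in overloaded ones. The groups did not overlap but sham library 2 and overloaded library 1 came close. The log2 fold change was -1.07 (SE 0.23, edgeR adjusted p = 0.000797). Gsn had the widest spread of the markers within sham muscle, with a CV of 27.0%. RefSeq lists 3 start sites for the gene, and a count per gene does not separate the transcripts that begin there.

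Cd34, a sialomucin of progenitor and endothelial cells (ENSMUSG00000016494, chromosome 1, 194938819 to 194961279), was at 607, 643 and 557 CPM in sham and at 460, 423 and 368 CPM in overloaded libraries. The groups did not overlap, but the step was small, its log2 fold change being -0.53 (SE 0.20, edgeR adjusted p = 0.0406). Cd248, or endosialin, a lectin-like receptor of stromal cells (ENSMUSG00000056481, chromosome 19, 5068078 to 5070682), was at 236, 280 and 242 CPM in sham libraries. Its overloaded libraries stood almost level at 171, 174 and 170 CPM. Its log2 fold change was -0.55 (SE 0.21, edgeR adjusted p = 0.0437). Cd34 was called in 6 and Cd248 in 5 of the 14 alternatives. Adjusted p ranged from 0.0201 to 0.37 for Cd34 and from 0.0218 to 0.341 for Cd248 over these alternatives. On the opposite strand, exons of Cd34 overlap those of Gm16897, which had 36 counts in all 6 libraries.

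Cd34 lost its call without any one of sham replicates 1 to 3 or overloaded replicates 2 and 3, with adjusted p between 0.0793 and 0.165 in edgeR. Cd248 lost its call without any one of the 6 libraries, with adjusted p between 0.0727 and 0.152 in edgeR.

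Ly6a, a small anchored surface protein (ENSMUSG00000075602, chromosome 15, 74994877 to 74998031), was at 2826, 2476 and 2671 CPM in sham and at 3629, 2825 and 2286 CPM in overloaded libraries. The groups overlapped, the overloaded libraries lying on both sides of the sham range. Its log2 fold change was 0.13 (SE 0.20, edgeR adjusted p = 0.668), with an approximate 95% interval of -0.26 to 0.52. The interval spans 0, and the value turned to -0.028 without overloaded replicate 1. Of its 50-base stretches, 19.0% also occur in Ly6c1, Ly6c2, Ly6i or a further gene, so some of its reads may belong to them.

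**Figure D1:**
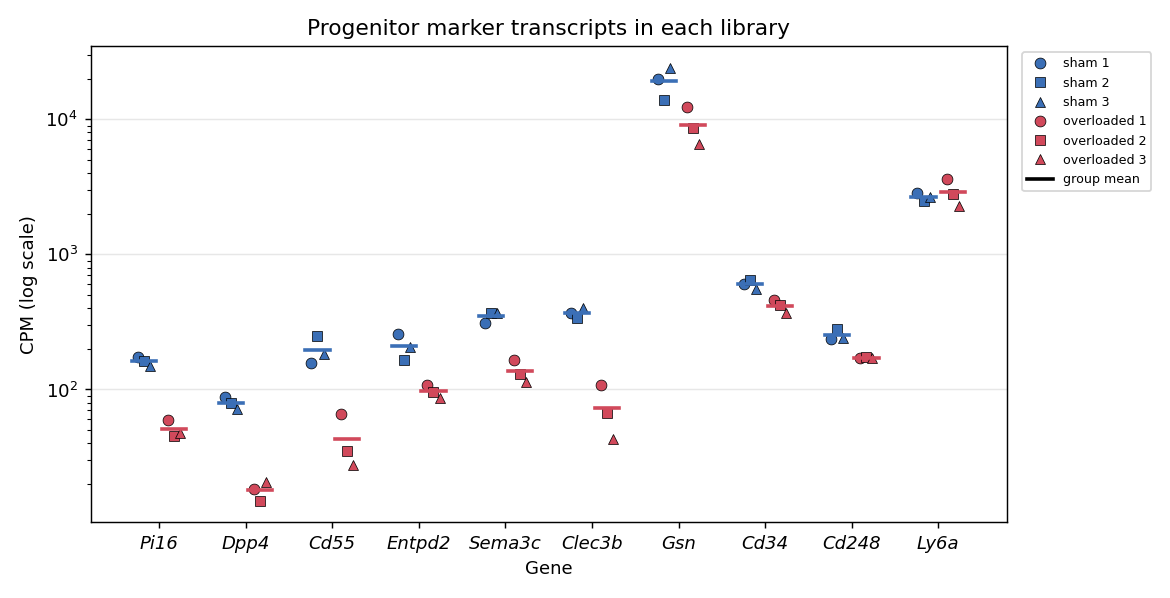
Level of each marker in the 6 libraries, in CPM on a log axis. Blue symbols are sham and red symbols overloaded libraries, the symbol shape gives the replicate number and lines are group means; red lies below blue for 9 genes and the groups overlap for Ly6a.

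Counts of the markers were also set against counts of Pdgfra, the receptor that the labels give as the marker of the sorted cells, in the same library. This ratio does not depend on how libraries are scaled. Pdgfra itself was at 769, 780 and 1021 CPM in sham and at 607, 416 and 759 CPM in overloaded libraries (log2 fold change -0.53, SE 0.21, edgeR adjusted p = 0.0624). Its groups did not overlap, but it was not called. Pi16 had 0.227, 0.210 and 0.145 reads per Pdgfra read in sham and 0.0983, 0.108 and 0.0625 in overloaded libraries. Dpp4 had 0.114, 0.101 and 0.0698 reads per Pdgfra read in sham and 0.0301, 0.0361 and 0.0274 in overloaded libraries. For Pi16, Dpp4, Cd55, Sema3c and Clec3b all overloaded libraries stayed below all sham libraries on this measure. The groups overlapped for Entpd2, Gsn, Cd34, Cd248 and Ly6a. The share of all tested genes that lay apart on this ratio was not worked out, so the number of markers apart is a description only.

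Mean ratios of Cd34 were 0.720 ± 0.152 in sham and 0.752 ± 0.265 in overloaded libraries (SD, n = 3, as for all values with ± here), and those of Cd248 were 0.301 ± 0.0612 and 0.308 ± 0.0999. In CPM, Cd34 and Cd248 fell by 0.53 and 0.55 on the log2 scale, and the value for Pdgfra was -0.53. On the log2 scale Clec3b had the largest drop in mean ratio (-1.73), from 0.436 ± 0.0407 to 0.131 ± 0.0654 reads per Pdgfra read. The ratio of Ly6a was 3.16 ± 0.531 in sham and 5.26 ± 1.99 in overloaded libraries, and the groups overlapped. Overloaded library 3, which had the most Pdgfra of its group, had the lowest ratio of its group for each of the 10 markers.

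Counts were also set against Ly6a, the 1 marker of the 10 that was not called lower, so this ratio restates the CPM result and is given as a description only. Per 1000 reads of Ly6a, sham libraries held 61.8, 66.2 and 55.4 reads of Pi16 and overloaded libraries 16.4, 16.0 and 20.8. The same measure for Dpp4 was 30.9, 31.8 and 26.7 in sham and 5.04, 5.33 and 9.11 in overloaded libraries. Each of the other 9 markers was below its sham range per Ly6a read in all 3 overloaded libraries. Against Pdgfra, by contrast, the groups of 4 of these 9 (Entpd2, Gsn, Cd34 and Cd248) overlapped. The share of all tested genes lying apart was not worked out for either ratio.

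**Figure D2:**
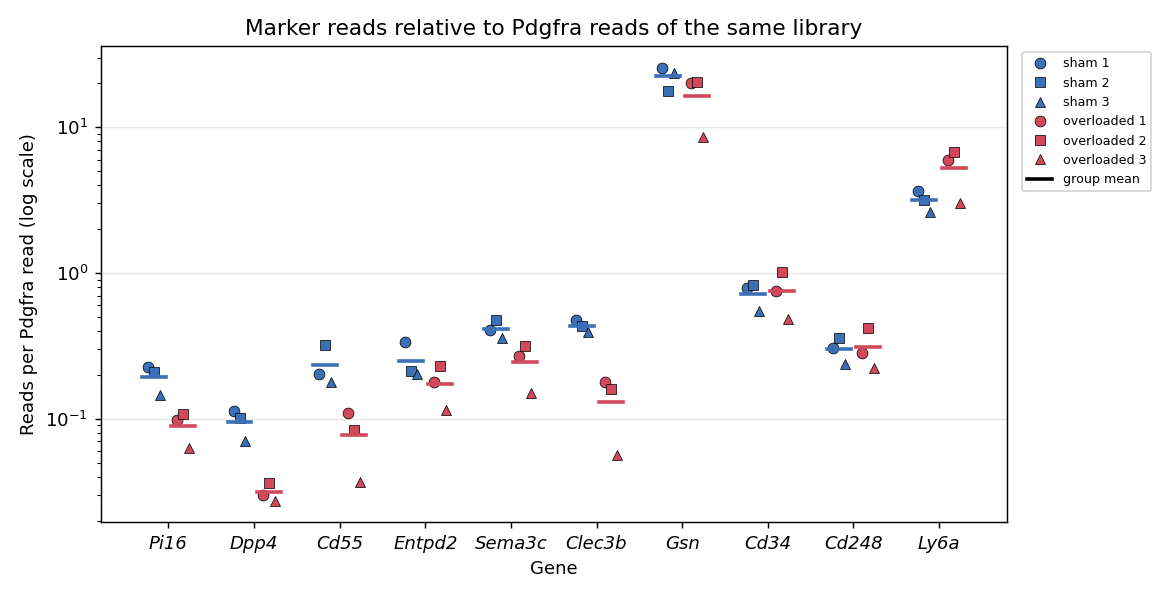
Reads of each marker per Pdgfra read of the same library, on a log axis, with blue sham and red overloaded libraries, shapes for replicate numbers and lines for group means. The groups are apart for Pi16, Dpp4, Cd55, Sema3c and Clec3b and overlap for the other 5 genes. The share of all tested genes apart on this ratio was not worked out.

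Profiles over the 6 libraries were compared as log2(CPM + 1) values, each centred on its own mean, by their root mean square (RMS) difference. This measure mostly reads the step between the groups. Cd34 and Cd248 were the closest of the 45 pairs of markers, with an RMS difference of 0.10. Pi16 and Sema3c came next at 0.22, then Entpd2 and Gsn at 0.25 and Dpp4 and Pi16 at 0.26. Clec3b and Ly6a were farthest apart at 1.29.

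Outside the list, 3128 tested genes averaging 50 CPM or more were compared with Pi16 and with Dpp4. Closest to Pi16 were Slc43a3 (RMS difference 0.11), a solute carrier, then Scara3 (0.14), a scavenger receptor class A protein, and Zfhx4 (0.14), a zinc finger homeobox factor. Slc43a3 stood at 490, 568 and 507 CPM in sham and at 187, 154 and 147 CPM in overloaded libraries. Closest to Dpp4 were Efhd1 (0.17), a calcium-binding protein, Tek (0.18), the angiopoietin receptor also called Tie2, and Dpep1 (0.19), a membrane dipeptidase. Tek stood at 127, 106 and 125 CPM in sham and at 31.7, 23.8 and 25.4 CPM in overloaded libraries. These genes were picked for likeness, so their falls carry no separate weight.

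A list of 20 other genes linked to the Pi16 and Dpp4 state held calls in both directions. Of 18 tested, 9 were called lower, 3 higher and 6 were not called, where 14.3% of all tested genes were lower and 15% higher. The share called higher was thus near that of all genes. The list had a median log2 fold change of -0.74. The lowest was Scara5, a ferritin receptor, which fell from 239 ± 38.8 to 33.1 ± 6.35 CPM (log2 fold change -2.83, edgeR adjusted p = 7.25e-10). Efhd1 fell by 2.42 on the log2 scale, and Timp2, an inhibitor of metalloproteinases, fell by 1.56. Ackr3, a scavenging chemokine receptor, fell from 382 ± 70.4 to 110 ± 13.96 CPM. Igfbp5 and Igfbp6, which bind insulin-like growth factors, had log2 fold changes of -1.29 and -1.07, and Procr, the protein C receptor, went from 242 ± 18.9 to 120 ± 22.6 CPM.

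The 3 that rose were Mfap5, Fstl1 and Tnfaip6. Mfap5, a microfibril protein that is among the usual markers of this state, rose from 2433 ± 245 to 6075 ± 588 CPM (log2 fold change 1.32, edgeR adjusted p = 4.17e-06). Fstl1 and Tnfaip6 rose by 0.85 and 0.68 on the log2 scale. Fbn1, which encodes fibrillin-1, stood at 1288 ± 151 in sham and 1810 ± 241 CPM in overloaded libraries, short of the threshold (edgeR adjusted p = 0.0557). Summed over the list, levels were 18116 to 20309 CPM in sham and 22013 to 24106 CPM in overloaded libraries, without overlap and in the direction opposite to the median. The sum is weighted toward abundant genes such as Mfap5 and Fstl1.

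Markers of the Col15a1, Cxcl14 and Lum state also fell in most cases. Of 18 tested, 13 were called lower, 1 higher and 4 were not called, beside 14.3% lower and 15% higher among all tested genes. The median log2 fold change of the list was -1.21. Myoc, which encodes myocilin, fell from 1548 ± 165 to 277 ± 111 CPM. Lpl, the lipoprotein lipase, had a log2 fold change of -1.46 and Vtn, encoding vitronectin, one of -2.32. Col15a1 itself fell by 0.65 (edgeR adjusted p = 0.0155), while Cxcl14 rose by a log2 fold change of 0.59 (edgeR adjusted p = 0.0173) and Lum was not called (-0.45, edgeR adjusted p = 0.105). The call of Cxcl14 was lost without sham replicate 2 and with the background covariate. The fall in resting markers was therefore not seen in the Pi16 and Dpp4 list alone. Whether the lists differ from each other was not tested.

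**Figure D3:**
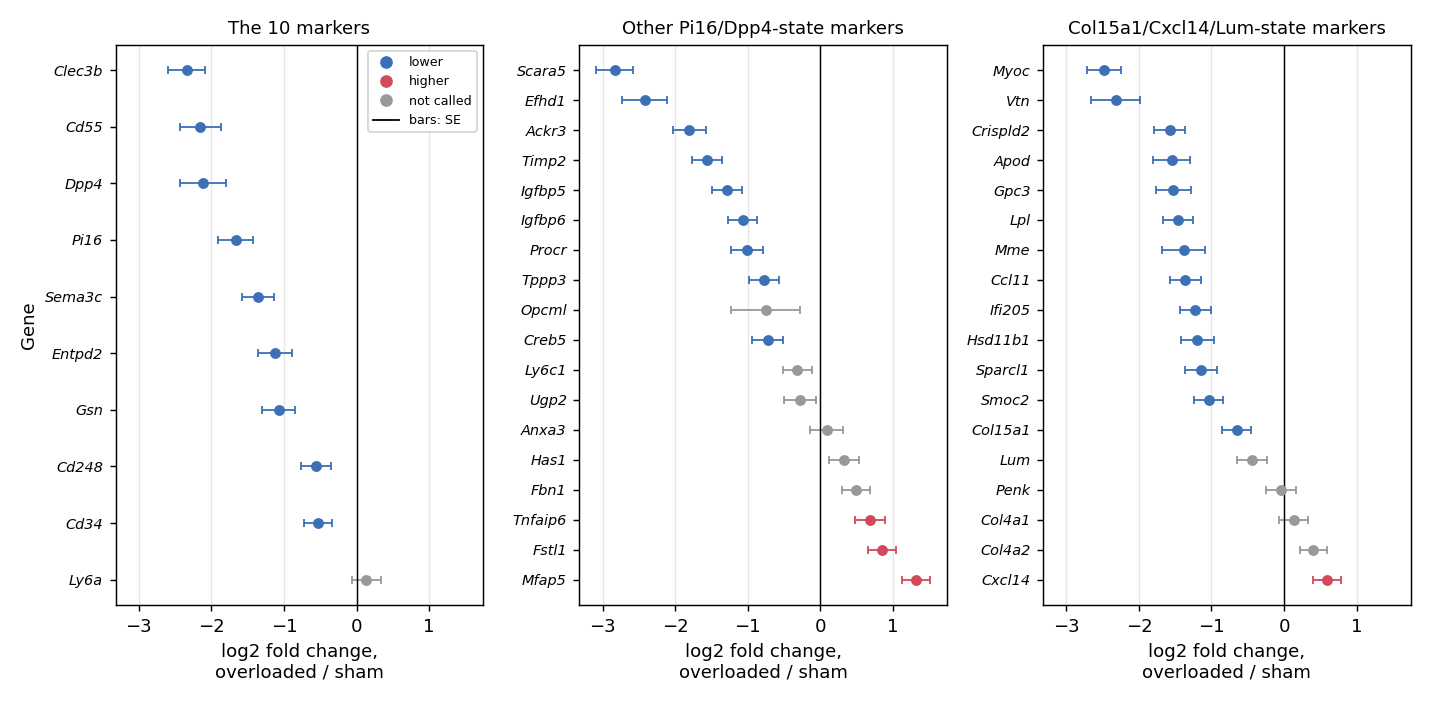
Log2 fold change of overloaded over sham libraries with its standard error, for the 10 markers (left), the tested genes of the other Pi16 and Dpp4 state list (middle) and the tested genes of the Col15a1, Cxcl14 and Lum list (right). Blue genes were called lower, red higher and grey not called. Calls of lower outnumber calls of higher in each panel, with 9 of 10, 9 of 18 and 13 of 18 genes called lower. Among all tested genes the share called lower was 14.3%.

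Markers of activated fibroblasts moved the other way: 10 of 11 tested were called higher and 1 lower, beside 15% and 14.3% of all tested genes. Tnc, the matrix protein tenascin-C, rose from 7.42 ± 1.77 to 1566 ± 274 CPM. The one that fell was Fap, fibroblast activation protein, the closest relative of Dpp4. Fap dropped from 94.6 ± 19.6 to 36.1 ± 11.97 CPM (log2 fold change -1.38, edgeR adjusted p = 0.000516). Of the relatives of Dpp4, 5 were tested and 2 were called lower, Fap and the lysosomal peptidase Dpp7 (-1.39). The cytosolic peptidase Dpp9 was called higher, with a log2 fold change of 1.61. Dpp8 (0.11) and Prep (0.90) were not called.

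Among CAP family relatives of Pi16, 3 of 8 had enough counts to test. Of these, 2 were called lower and 1 higher, beside 14.3% and 15% of all tested genes. Crispld2 fell from 901 ± 176 to 302 ± 51.3 CPM, and Crispld1, with 4 to 27 counts per library, fell by 1.31 on the log2 scale (edgeR adjusted p = 0.0351) although its groups overlapped. Glipr2 rose by a log2 fold change of 0.89. Crispld2 also belongs to the Col15a1, Cxcl14 and Lum list and is already counted among the genes called lower there. Among complement regulators beside Cd55, Serping1, the C1 inhibitor, was called lower, going from 4201 ± 476 to 2704 ± 180 CPM (log2 fold change -0.64, edgeR adjusted p = 0.011). Clu and Cr1l were not called.

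Of the receptors and relatives of Sema3c, 5 of 13 were tested and 1 was called: Nrp1, a neuropilin receptor, rose from 73.0 ± 5.05 to 118 ± 9.73 CPM (log2 fold change 0.70, edgeR adjusted p = 0.0257). The ligand Sema3c and this receptor thus moved in opposite directions. Of 14 genes for handling extracellular ATP and adenosine, 6 were tested and 1 was called, Enpp1, a pyrophosphatase, which rose from 24.6 ± 4.36 to 107 ± 38.3 CPM. Among all tested genes 15% were called higher, and 1 call among 5 or 6 genes lies near that share. Nt5e, which makes adenosine from AMP, was not tested, with 5, 4 and 8 counts in the sham libraries and 4, 1 and 0 in the others.

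In the gelsolin family, Capg, a capping protein, rose from 64.6 ± 5.91 to 199 ± 70.2 CPM while Svil, encoding supervillin, fell from 152 ± 44.2 to 85.0 ± 18.9 CPM, and Flii was not called. Clec11a, a lectin-like growth factor in the tetranectin family, rose from 75.5 ± 12.9 to 167 ± 33.0 CPM, the opposite of Clec3b. None of the 4 Ly6 relatives tested was called (edgeR adjusted p 0.178 to 0.751; none had an unadjusted p under 0.05, and DESeq2 and limma-voom called none either), Ly6c1 being at 1195 ± 91.5 and 959 ± 227 CPM. Thbd, a relative of Cd248, stood at 196 ± 23.8 and 197 ± 38.9 CPM, and Cd164, a sialomucin like Cd34, at 194 ± 38.6 and 205 ± 35.5 CPM. Neither was called.

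Some markers are shared with other cells, so markers of those cells were summed. Of 11 general FAP genes tested, 4 were called lower and 3 higher, beside 14.3% and 15% of all tested genes. Dcn, which encodes the proteoglycan decorin, fell from 20310 ± 1611 to 8208 ± 476 CPM (log2 fold change -1.31, edgeR adjusted p = 2.78e-06), further on the log2 scale than Entpd2, Gsn, Cd34 and Cd248. Tcf7l2, Thy1 and Hic1 were also called lower, with log2 fold changes of -1.08, -0.70 and -0.69. Some general FAP markers thus fell along with 9 of the 10 genes. Col1a1, Col1a2 and Col3a1, which encode chains of fibrillar collagens, rose by 1.42, 0.94 and 1.34 on the log2 scale. Levels in sham ranged from 29.8 ± 6.27 CPM for Osr1 to 20310 ± 1611 CPM for Dcn among those tested, with Twist2 at 34.7 ± 4.77 and Pdgfrb at 87.4 ± 6.51 CPM. Endothelial markers, of which 9 of 10 had reads in sham, summed to 127 to 225 CPM in sham and 33.5 to 82.8 CPM in overloaded libraries. Tek, also listed above as like Dpp4, was the most abundant of them in sham libraries. Without Tek the sums were 97.4, 20.7 and 17.5 CPM in sham and 35.6, 58.9 and 8.10 CPM in overloaded libraries, which overlap. Cldn5 had no reads in sham. Leukocyte markers summed to 15.8 to 27.0 CPM in sham and 3.85 to 20.1 CPM in overloaded libraries, with Adgre1 and Lyz2 at 0 throughout. Immune cells thus left few reads. Glial markers, relevant to Entpd2, which glia also express, summed to 7.16 to 27.0 and 1.16 to 7.52 CPM. Sox10, a defining gene of glia, was at 0 in all 6 libraries. Pericyte and smooth muscle markers summed to 143 to 196 and 109 to 163 CPM. Myofibre markers summed to 48.7 to 78.8 and 23.1 to 32.4 CPM, and muscle stem cell markers to 80.2 to 85.0 and 109.7 to 150.5 CPM, the latter mostly Vcam1 with Myod1 at 0. Tendon and perineurial markers summed to 43.6 to 75.9 and 100.3 to 138 CPM, mostly Slc2a1 in overloaded libraries. Vcam1 and Slc2a1 are not specific to these cells. Mesothelial and epithelial markers summed to at most 6.27 CPM in any library. The part of these cells in the marker results was not tested.

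The 9 markers that fell kept a negative log2 fold change in all 14 alternatives. Over 14 alternatives the log2 fold change of Pi16 stayed between -1.77 and -1.57, that of Dpp4 between -2.29 and -1.99, and that of Clec3b between -2.73 and -2.05. With the share of receptor background reads as a covariate, 7 markers were still called lower, among 449 genes lower in all.

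**Figure D4:**
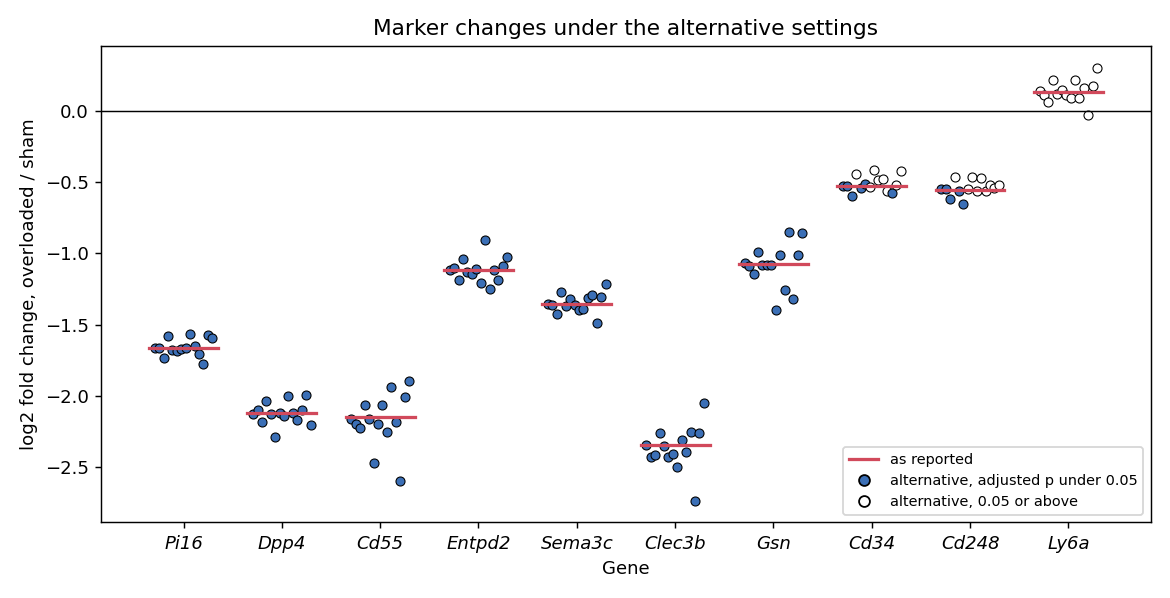
Log2 fold change of each marker as reported (red line) and under each of the 14 alternative settings (circles, filled where the adjusted p was under 0.05). Circles of 7 genes are filled throughout, those of Cd34 and Cd248 only in part, and those of Ly6a, around 0, are all open.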

How the data were processed

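The authors deposited raw read counts per gene for 6 libraries, not normalised. Per the submitters' processing notes, reads were handled with HISAT2 2.2.1 and, in no stated order, DESeq2 1.28.1, featureCounts 2.0.1 and Trim Galore 0.6.6 on GRCm38. The sources used here do not state the strand setting, the multi-mapping rule or the use of molecular identifiers, so antisense overlaps cannot be resolved. From these counts, genes passing filterByExpr (minimum count 10, minimum total 15) were scaled by TMM and tested with edgeR 4.0.16 in R 4.3.3 (robust quasi-likelihood F test, Benjamini-Hochberg over 7207 genes). SE is the log2 fold change over the square root of F. The script was tested on simulated data, where it recovered 26.5% of 200 genes changed 2-fold and 87% of 200 changed 4-fold. Of the genes called there, 5.36% and 7.45% were false. A gene not called may therefore still have changed. Gene positions and overlaps are from GENCODE M21 (GRCm38) and promoters from RefSeq (GRCm38.p6). Replicate libraries differed by more than sampling noise (chi-square per degree of freedom 4.30 to 7.77).

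The members and gene lists were chosen with earlier results of these data known. All members were named; from each other list, called genes were named, up to 6 in order of adjusted p, and genes named beyond that (Igfbp6, Procr, Fstl1, Tnfaip6, Fbn1, Col15a1, Cxcl14, Lum, the general FAP genes, and uncalled or marker genes of the other lists) were picked after their values were seen. Some genes of these lists are not reported here. The genes named for likeness had the 3 smallest differences. Alternatives were DESeq2 1.42.0, limma-voom (limma 3.58.1), library size only, no filter, a minimum count of 30, thinning to the smallest library, replicate number as a block, the receptor background as a covariate, and each library left out.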

Additional observations from a re-analysis of the deposited data

How the results depend on the processing

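Of the 10 markers, 9 were called lower in 5 alternatives, 8 in 1 and 7 in 8, the difference being Cd34 and Cd248. With the background share as a covariate, 449 genes were lower and 498 higher against 1027 and 1084, and the Col15a1, Cxcl14 and Lum list had 0 higher genes in place of 1; leaving out single libraries gave 0 to 1 there. The log2 fold change of Ly6a ranged from -0.028 to 0.302 when single libraries were left out. Calls of Pdgfra appeared in 6 of 14 alternatives, with log2 fold changes from -1.05 to -0.31. The cause of these shifts was not tested. Other counts stayed within 1.5 times, 7 to 10 lower and 2 to 4 higher for the other Pi16 and Dpp4 list and 12 to 14 lower for the Col15a1, Cxcl14 and Lum list. Library size only shifted all log2 fold changes by a median of -0.067.

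Libraries share numbers 1 to 3 in both groups, but deviations of same-numbered libraries correlated across genes at only 0.014 to 0.022, so the numbers were not taken as pairs, though each library correlated best with its own number. With the replicate number as a block, 993 genes were lower, 1043 higher, and 7 markers lower, Cd34 and Cd248 losing their calls (edgeR adjusted p = 0.051 and 0.0584). Counting limits the precision for Dpp4, with 49 reads in all overloaded libraries.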
